A study of Populus tremula x Populus alba with 4 samples.

Results

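Messenger RNA in the bark of a hybrid poplar was counted in 4 libraries. Described here are 7 short stretches of the gene numbering in which most neighbours lay off in the same direction between MIR15 and wild-type plants. The plants were of the clone INRA 717-1B4, a cross of Populus tremula and P. alba that is widely used for genetic transformation. Wild-type plants (WT) gave 2 libraries and plants carrying the MIR15 transgene gave 2, each pair named as biological replicates 1 and 2. Plants of both genotypes were raised aseptically, with kanamycin in the medium where needed, and then moved to soil in a growth chamber. The sources used here do not give the transgene's promoter, the number of lines, plant age or any pooling. P-values therefore measure the spread between these samples and no more.

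The stretches were taken as all genes whose ID number lies in 7 fixed ranges: Potri.003G206400 through Potri.003G210000, Potri.005G131600 through Potri.005G134500, Potri.006G018000 through Potri.006G020500, Potri.011G072500 through Potri.011G076500, Potri.014G182000 through Potri.014G187000, Potri.016G014600 through Potri.016G017400 and Potri.019G025400 through Potri.019G028700. Together they hold 248 of the 41335 genes in the files: 37, 30, 26, 41, 51, 29 and 34 in that order. That the ID number follows gene order on a chromosome is assumed, not checked. The files pair no ID with a gene name or function, so members are given by ID alone, and the label bark could not be set against marker genes. The ranges were chosen from the difference between MIR15 and WT in these same 4 libraries. Differences between the genotypes are therefore given as descriptions, in total and in unique reads alike, with no test of the members.

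Neighbouring genes in plant genomes are often copies of one another made by tandem duplication, and many plant gene families of defence and of secondary metabolism sit in such clusters. A short sequencing read from one copy can match another copy equally well, so that a read count given to one gene may hold RNA of its relatives. The files give 2 counts per gene that bear on this: total gene reads, and the unique gene reads among them. Reads in the total but not in the unique count match more than 1 place and are called multi-matching reads. In bulk tissue, fewer cells of a type and less RNA per cell cannot be told apart.

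Of the 248 members, 28 had no read in any library and 87 had reads but a mean under 1 CPM (CPM is the read count relative to the scaled library size). The other 133 members had a mean of at least 1 CPM over the 4 libraries, 19 in each stretch, which is the width of the window by which the stretches had been found. Their mean levels ran from 1.00 to 19029 CPM, and the fewest total reads behind any value were 18. Medians below are over these members. Total gene reads came to between 68453851 and 82789893 per library, of which 5.29% to 6.46% were multi-matching, with the highest share in WT replicate 1 and the lowest in MIR15 replicate 1. That order did not hold outside the stretches. Over all other genes the shares were 4.29% and 3.70% in WT replicates 1 and 2. In MIR15 replicates 1 and 2 they were 4.03% and 4.31%. Most multi-matching reads within the stretches lay in 1 member, Potri.005G133100.1. It held 97.6% of the reads of the 005G stretch, and 96.2% of its own reads were multi-matching. In WT replicate 1 the 005G stretch had 23545 of the 26549 CPM of all 248 members.

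No member passed the edgeR quasi-likelihood test at an adjusted p under 0.05. Of the 164 members that could be tested, all had an adjusted p of 1.00, and 0.00323% of all tested genes were called. At an unadjusted p under 0.05, edgeR gave 32 lower and 6 higher members among the 133, beside 1.01% lower and 1.31% higher over all genes averaging 1 CPM or more. A fit with the replicate number as a block called 7 members, where it called 0.387% of all tested genes. DESeq2 called 3 members, where it called 0.0416% of all genes with an adjusted p: Potri.005G132300.1, Potri.005G133100.1 and Potri.014G186000.1. Since the members were chosen by this contrast, nothing is read from these counts.

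The 5 stretches with lower values in MIR15 had median log2 fold changes of -0.53 (003G), -0.32 (005G), -0.49 (011G), -0.50 (014G) and -0.29 (019G). The 2 with higher values had 0.42 (006G) and 0.52 (016G). The median over all genes of at least 1 CPM was 0.00099. Log2 fold changes were negative in 14 of 19 members under 003G, 14 under 005G and 13 under 011G. They were negative in 18 under 014G and 16 under 019G, where 49.7% of all such genes were. Positive ones numbered 17 of 19 under 006G and 18 under 016G, where 50.3% of all such genes were positive. Both MIR15 libraries lay below both WT libraries in 11 of 19 members under 003G, 7 under 005G, 11 under 011G, 10 under 014G and 7 under 019G, where 12.0% of all such genes do. Both lay above in 11 of 19 under 006G and 5 of 19 under 016G, where 12.0% of all such genes do. At the limits of the ranges, the 5 genes of at least 1 CPM next outside had median log2 fold changes between -0.29 and 0.13. The 5 just inside had medians from -0.44 to 0.20 at the starts and from -1.0 to 0.69 at the ends. At the starts of 005G and 011G the inner medians were each 0.07, against the direction of the stretch, and under 019G -0.08. Under 003G and 016G the inner starts, at -0.24 and 0.12, were no further off than the outer genes, at -0.29 and 0.13. Ahead of the 003G range all 5 outer genes were also lower, by 0.11 to 0.39 on the log2 scale, and ahead of the 016G range all 5 were also higher, by 0.05 to 0.27. After the ends of the 011G and 014G ranges, 4 of 5 outer genes were lower, with medians of -0.12 and -0.03.

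**Figure D1:**
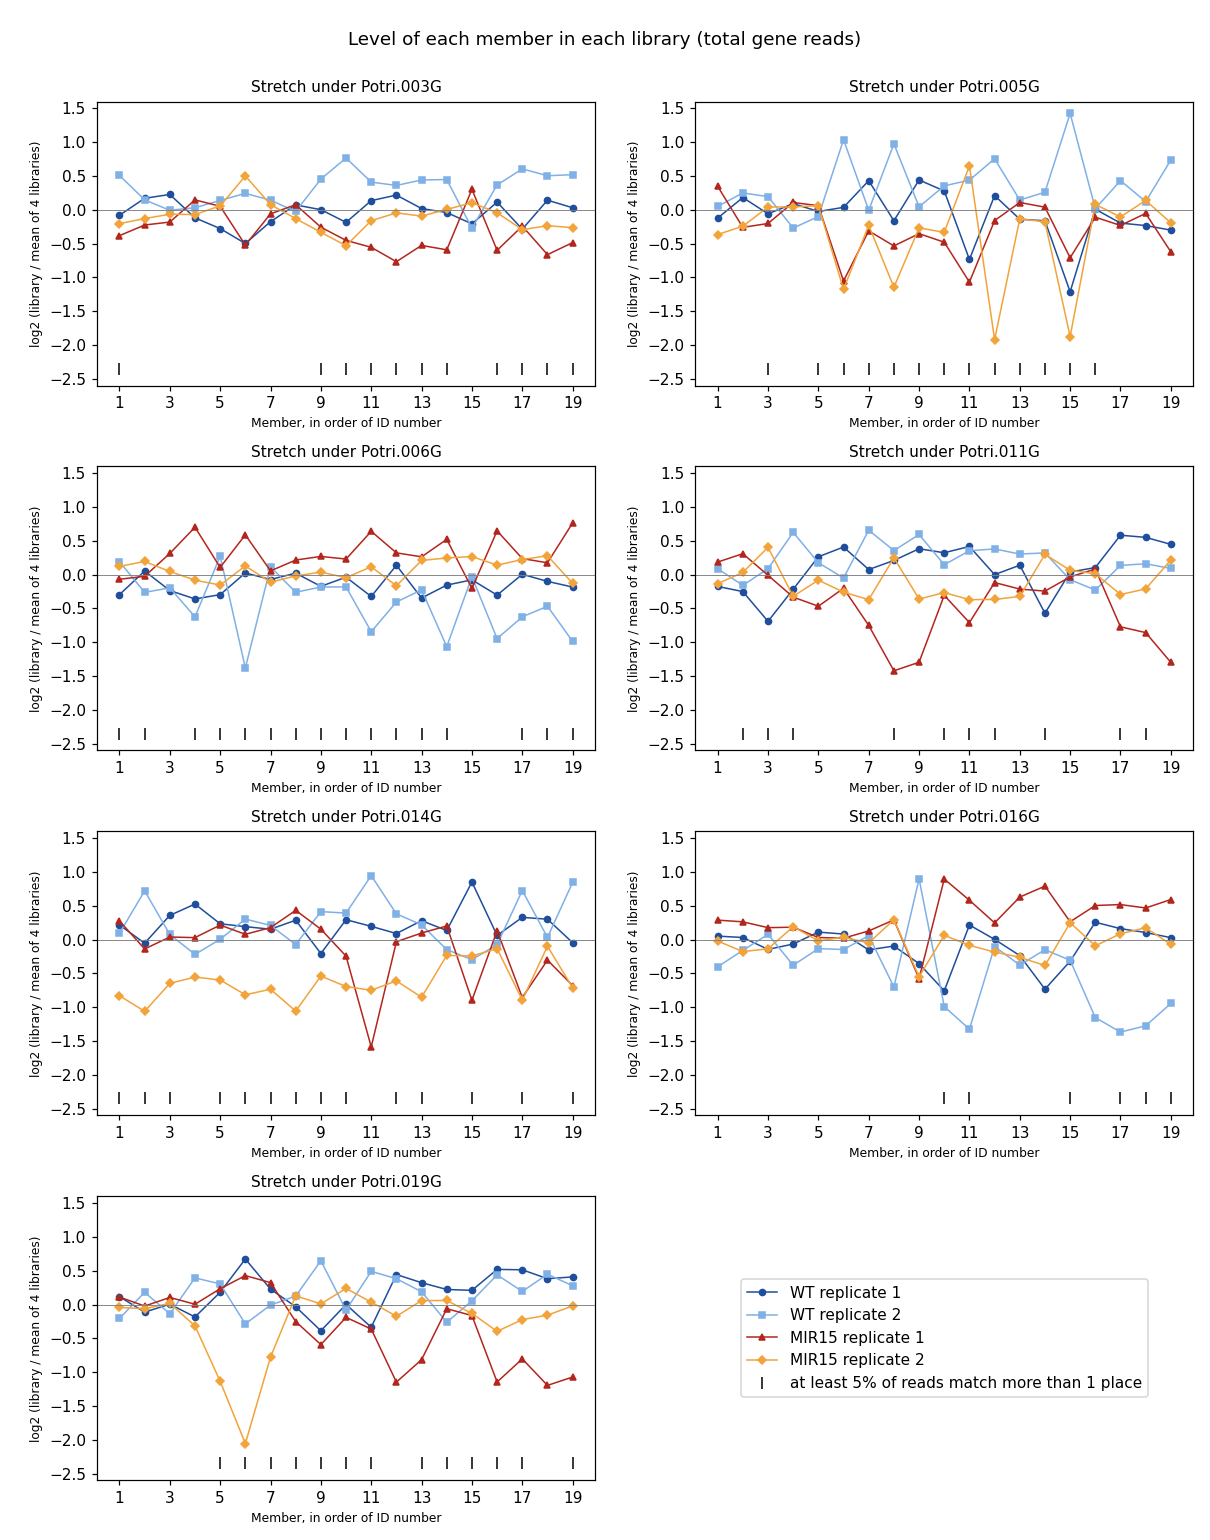
Each panel shows 1 stretch; the x axis is the order of its 19 members averaging 1 CPM or more and the y axis the log2 ratio of each library to the mean of the 4 (with 0.1 CPM added to both), and black ticks mark members with at least 5% multi-matching reads. WT replicate 2 runs lowest at the end of the 016G stretch, MIR15 replicate 2 over most of the 014G stretch and MIR15 replicate 1 at the end of the 019G stretch.

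The 7 stretches differed in which library stood apart, as the plot of all members by library shows. Under 014G it was MIR15 replicate 2, with a median of 53.0% of the WT mean, while MIR15 replicate 1 stood at 88.8%. This library was the lowest of the 4 in 16 of 19 members, against 22.6% of all genes. Under 016G it was WT replicate 2, the lowest of the 4 in 12 of 19 members (29.9% of all genes), and MIR15 replicate 1 was the highest in 14 of 19 (28.4% of all genes). There MIR15 replicate 1 had a median of 149% of the WT mean and MIR15 replicate 2 of 109.9%. WT replicate 1 stood at 108.0%, close to MIR15 replicate 2, and WT replicate 2 at 92.0%. Under 003G, WT replicate 2 was the highest in 13 of 19 members (29.0% of all genes). MIR15 replicate 1 was the lowest there in 11 (28.7% of all genes). The 003G medians were 87.5% and 112% of the WT mean in WT replicates 1 and 2 and 70.6% and 81.8% in MIR15. Under 011G the medians stood at 96.8% and 103% of the WT mean in WT and 68.6% and 72.9% in MIR15. The medians under 005G were 71.9% and 79.5% in MIR15, under 006G 136% and 125%, and under 019G 81.4% and 83.2%.

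**Figure D2:**
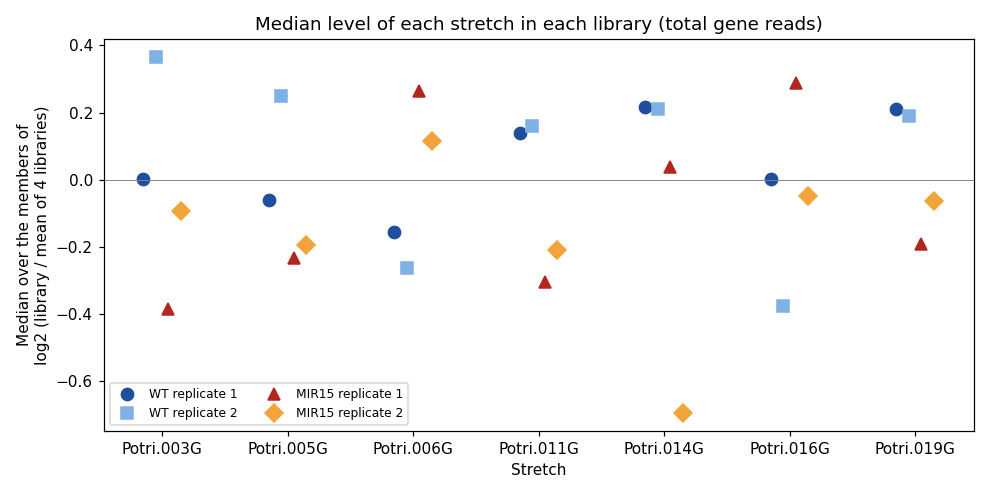
For each stretch on the x axis, the 4 points give the median over 19 members of the log2 ratio of 1 library to the mean of the 4, on the y axis. MIR15 replicate 2 sits at -0.69 under 014G, with MIR15 replicate 1 at 0.04, and WT replicate 2 sits at -0.38 under 016G.

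Differences within a genotype did not enter the choice of the ranges, though a library that stands apart also moves the mean of its genotype, on which they were chosen. Each compares 1 library with 1 and allows no test. Between the MIR15 libraries, the 014G stretch had a median of -0.58 on the log2 scale for replicate 2 against replicate 1. More than 1.5-fold lower in replicate 2 were 9 of its 19 members, beside 5.08% of all genes of at least 1 CPM. The 019G stretch went the other way, with a median of 0.38 and 6 of 19 members more than 1.5-fold higher in replicate 2, beside 5.82% of all genes. Under 016G, 6 of 19 members were more than 1.5-fold lower in MIR15 replicate 2. Between the WT libraries, 6 of 19 members under 016G and 5 of 19 under 006G were more than 1.5-fold lower in replicate 2 (4.96% of all genes). Under 005G, 6 of 19 were more than 1.5-fold higher there (6.25% of all genes). Under 003G the median for WT replicate 2 against replicate 1 was 0.36.

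Members of the stretches held more multi-matching reads than genes at large. At least 5% of reads were of this kind in 83 of the 133 members (62.4%), against 16.0% of all genes of at least 1 CPM, and at least 50% of reads in 33 members (24.8%), against 4.11%. The share with at least 5% was 84.2% under 006G, 73.7% under 014G, 68.4% under 005G and also 68.4% under 019G, 57.9% under 003G, 52.6% under 011G and 31.6% under 016G. The share with at least 50% was 63.2% under 005G and 47.4% under 014G, and no member under 016G reached it. Of the 9 members in which at least 95% of reads were of this kind, 6 lay under 005G and 3 under 003G. The shares themselves did not enter the choice of the ranges. Neighbours that share reads can shift together, however, and the ranges were chosen for neighbours that did. The shares are therefore not independent of that choice. They are set side by side without a test, since neighbours that share sequence are not independent.

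**Figure D3:**
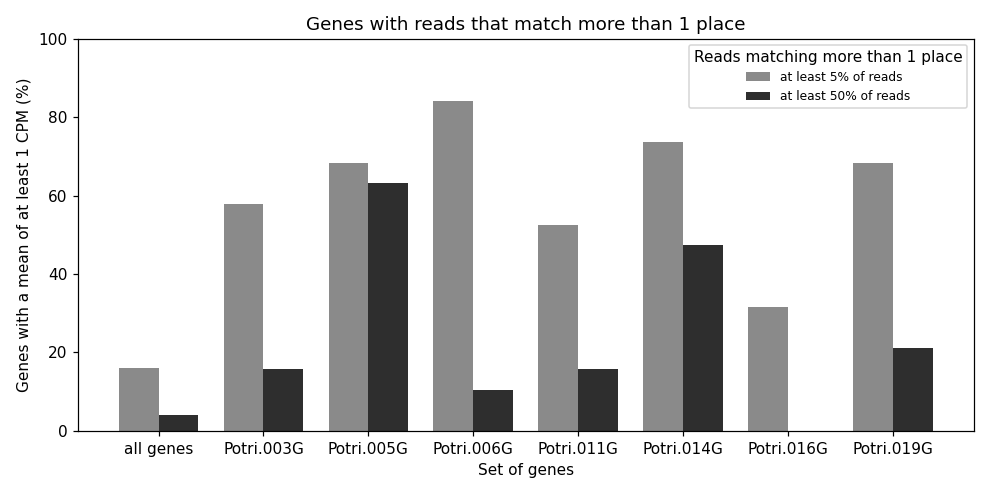
Bars give the percentage of genes averaging 1 CPM or more, on the y axis, with at least 5% (grey) or 50% (black) multi-matching reads, for all genes and for each stretch on the x axis. The grey bars stand at 16.0% for all genes and between 31.6% and 84.2% in the stretches.

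In the stretch under Potri.003G, members differed with their share of multi-matching reads. Its 8 members below a 5% share had a median log2 fold change of 0.05, and its 11 others of -0.55. In 9 members both kinds of reads had a mean of at least 0.5 CPM. Their median log2 ratios were -0.53 in unique and -0.61 in multi-matching reads, with the same sign in 8 of them. The part of multi-matching reads in the shift was not tested. Low shares did not go with a small difference throughout. The 3 members from Potri.003G206400 to Potri.003G206700 had shares of 3.63% to 5.36%, with a median of 4.27% and only the highest above the 5% cut. All 3 had both MIR15 libraries below both WT libraries, with a median log2 fold change of -0.34. The stretch's median was -0.30 without WT replicate 2 and -0.29 without MIR15 replicate 1. Sections within this and the other stretches were chosen after their values were seen. In unique reads the stretch had a median of -0.36 over the 16 members that could be tested, with 3 of the 19 left out. From Potri.003G207000 to Potri.003G207600, where the 5 members of at least 1 CPM had next to no such reads, the log2 fold changes lay between -0.05 and 0.17. From Potri.003G207800 to Potri.003G209000 the 8 members had a median of -0.55, and 6 of them had both MIR15 libraries below both WT libraries.

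Potri.003G207900.1 had 21.6 and 41.9 CPM in WT replicates 1 and 2 and 18.0 and 17 CPM in MIR15 replicates 1 and 2. The MIR15 libraries were close together and WT replicate 2 stood well above WT replicate 1. The log2 fold change was -0.86 ± 0.29 (SE), and -0.31 without WT replicate 2. Of its reads, 46.8% were multi-matching, and its unique reads gave -0.75. Potri.003G210000.1, the last member, had 42.0 and 59.0 CPM in WT and 29.4 and 34.3 CPM in MIR15, with an edgeR log2 fold change of -0.67 ± 0.20 (SE). Its groups did not overlap, and with 6.99% of multi-matching reads its unique reads gave -0.67 as well. The 2 members with most reads were Potri.003G206500.1, with 79.5 and 78.2 CPM in WT against 60.4 and 64.6 CPM in MIR15, and Potri.003G207200.1, with 48.5 and 64.8 CPM against 61.0 and 61.2 CPM. The first was lower in both MIR15 libraries. The second overlapped, and its 0.11 was the largest difference against the direction of the stretch among members of at least 5 CPM; below that level Potri.003G208900.1 had 0.47.

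Potri.003G208600.1 and its neighbour Potri.003G208700.1 had no unique read in any library. Potri.003G208600.1 had 20.1 and 26.9 CPM in WT and 13.7 and 18.6 CPM in MIR15. Potri.003G208700.1 had 18.5 and 26.0 CPM in WT and 12.6 and 19.1 CPM in MIR15. The ratio of the first to the second was between 0.970 and 1.09 in every library, and which gene the RNA came from cannot be told from these counts.

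The stretch under Potri.005G was the one where unique and total reads differed most. The median log2 fold change was -0.32 in total reads and -0.07 in unique reads, over 17 members that could be tested there. In total reads it was -0.015 without WT replicate 2 and -0.50 without MIR15 replicate 2, and -0.13 over the 15 members of at least 5 CPM. From Potri.005G132300 to Potri.005G133100, 5 of 9 members had at least 1 CPM, and in each of these 5 at least 93.8% of reads were multi-matching and both MIR15 libraries lay below both WT libraries. The 5 members before them, from Potri.005G131600 to Potri.005G132200, had log2 fold changes between -0.50 and 0.16. The 5 members from Potri.005G133300 to Potri.005G133700 were also rich in multi-matching reads, at 51.8% to 99.7%, yet had a median of -0.13, and only 1 of them had groups that did not overlap. Among these 5, values ran from -1.89 in Potri.005G133700.1, where WT replicate 2 stood far above the other 3 libraries, to 0.07. The 4 after Potri.005G133700 had values between -0.73 and 0.09.

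Potri.005G132300.1 showed the largest difference in this stretch among members of at least 5 CPM. It had 225 and 450.4 CPM in WT and 106 and 97.0 CPM in MIR15, with an edgeR log2 fold change of -1.74 ± 0.31 (SE). Both MIR15 libraries lay below both WT libraries, which differed from each other 2.00-fold. Its unique reads were few, 10.1 and 6.61 CPM in WT against 5.32 and 5.01 CPM in MIR15, with the order of the WT libraries turned round, and gave -0.69. Potri.005G132600.1 had no unique read; its total was 5.01 and 11.1 CPM in WT and 3.85 and 2.48 CPM in MIR15.

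Potri.005G133100.1 held 97.6% of all reads of the stretch. Its multi-matching reads came to 22013 and 23929 CPM in WT and 12949 and 14291 CPM in MIR15, where the genotypes were clearly apart. Its unique reads came to 1058 and 375 CPM in WT and 693 and 809.6 CPM in MIR15, where both MIR15 libraries lay between the WT libraries. The log2 ratio of MIR15 to WT was -0.75 in the former reads and 0.07 in the latter. Potri.005G132000.1, with 1.87% of such reads, had 6.71 and 5.20 CPM in WT and 6.79 and 6.48 CPM in MIR15, with a log2 fold change of 0.16 ± 0.22 (SE).

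**Figure D4:**
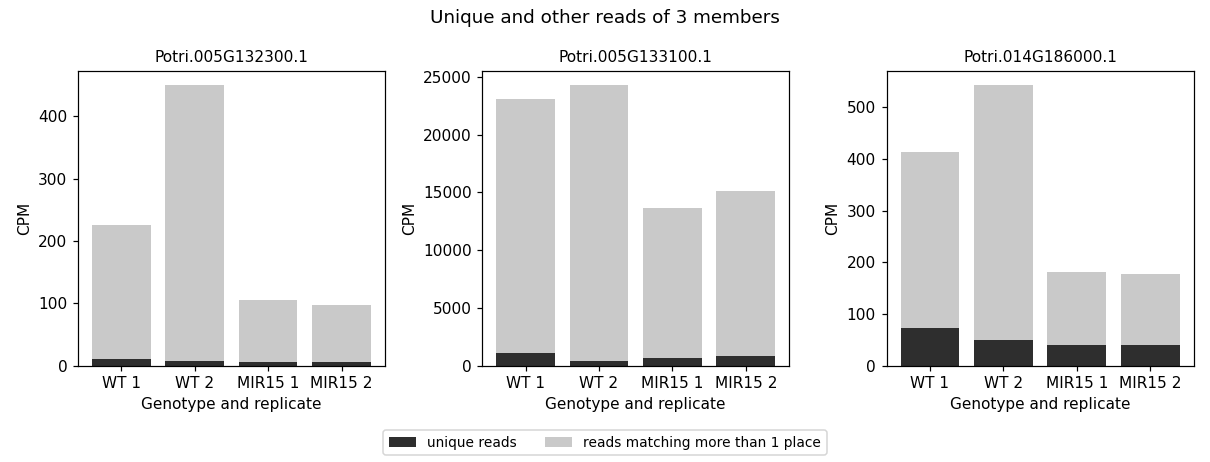
Stacked bars give the level in CPM on the y axis of 3 members in each of the 4 libraries on the x axis, split into unique reads (black) and multi-matching reads (grey). In Potri.005G133100.1 the unique part is 1058 and 375 CPM in WT and 693 and 809.6 CPM in MIR15, while the grey part is lower in both MIR15 libraries in all 3 genes.

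In the stretch under Potri.014G, MIR15 replicate 2 was low over a long run, and the median of the stretch was -0.17 without it and -0.92 without MIR15 replicate 1. From Potri.014G182000 to Potri.014G185100, all 13 members of at least 1 CPM had a negative log2 fold change (49.7% of all genes of at least 1 CPM had), and MIR15 replicate 2 was the lowest library in 12 of them. Its median there was 50.5% of the WT mean, with a range from 36.7% to 62.6%, while MIR15 replicate 1 had a median of 88.9%. Unique reads of the whole stretch, its far end included, showed the same order. Over its 18 members with at least 1 CPM in unique reads, the median log2 ratio to the 4-library mean was -0.61 for MIR15 replicate 2. It was 0.03 for the other MIR15 library and 0.15 and 0.17 for WT.

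Potri.014G184100.1 had 35.9 and 37.3 CPM in WT, 36.5 CPM in MIR15 replicate 1 and 19.4 CPM in MIR15 replicate 2. Only MIR15 replicate 2 was low, and the groups overlapped. Potri.014G183800.1, chosen after its values were seen, tracked it with 35.1, 37.9, 32.4 and 17.4 CPM in the same order, at a ratio of 0.888 to 1.02. Of the reads of these 2 genes, 59.5% and 58.3% were multi-matching.

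At the far end of the stretch, both MIR15 libraries were low. Potri.014G186000.1 had 413 and 544 CPM in WT and 181 and 177 CPM in MIR15, with an edgeR log2 fold change of -1.42 ± 0.20 (SE). Its groups were well apart, and its MIR15 libraries were nearly equal. Its multi-matching reads gave a log2 ratio of -1.58, and its unique reads, 73.0 and 49.2 CPM in WT against 39.0 and 39.7 CPM in MIR15, gave -0.63. As in Potri.005G132300.1, WT replicate 2 was the higher WT library in total reads and the lower in unique reads. Potri.014G187000.1, the last member, had 6.75 and 12.6 CPM in WT and 4.31 and 4.21 CPM in MIR15, with an edgeR log2 fold change of -1.18 ± 0.31 (SE) and 76.5% multi-matching reads. Without Potri.014G186000.1, which held 67.1% of the reads of the stretch, the summed level was 188 and 194 CPM in WT, 169 CPM in MIR15 replicate 1 and 106 CPM in MIR15 replicate 2.

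The stretch under Potri.011G had nearly the same median in unique as in total reads. The median was -0.49 in total reads and -0.51 in unique reads, and -0.49 over the 9 members with under 5% of multi-matching reads. Over the 10 members of at least 5 CPM it was -0.20. The shift was not even along the stretch. From Potri.011G073700 to Potri.011G075100, all 10 members of at least 1 CPM were lower, with a median of -0.59, and 9 had groups that did not overlap. The 3 members before them had values of 0.07 to 0.49, and the 3 from Potri.011G075400 to Potri.011G075600 of 0.03 to 0.11. The last 3, from Potri.011G076200 to Potri.011G076500, were all lower, with a median of -0.90. There MIR15 replicate 1 was the lowest library each time, at a median of 42.7% of the WT mean, and MIR15 replicate 2 stood at 66.9%.

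Potri.011G074200.1 had 53.1 and 79.6 CPM in WT and 29.9 and 39.0 CPM in MIR15, with an edgeR log2 fold change of -0.95 ± 0.23 (SE). Potri.011G075000.1, with 92.8 and 104 CPM in WT and 72.6 and 67.3 CPM in MIR15, had -0.49 ± 0.15 (SE). Potri.011G074100.1 had 76.3 and 55.5 CPM in WT and 50.0 and 48.0 CPM in MIR15, or -0.43 ± 0.18 (SE). All 3 had both MIR15 libraries below both WT libraries, and at most 1.74% of their reads were multi-matching. Potri.011G076500.1, with 31.4 and 24.5 CPM in WT and 9.29 and 26.7 CPM in MIR15, was low in MIR15 replicate 1 and within the WT range in replicate 2. Among members of at least 5 CPM, Potri.011G072600.1 had the largest difference against the direction of the stretch, with 4.75 and 5.06 CPM in WT and 7.05 and 5.80 CPM in MIR15 (0.39 ± 0.22, SE). Potri.011G075400.1 had 64.7% multi-matching reads, the highest share among members of at least 5 CPM, and its libraries of both genotypes overlapped, at 7.05 and 13.2 CPM in WT and 8.87 and 13 CPM in MIR15.

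The stretch under Potri.019G held 2 sections in which different MIR15 libraries were low. From Potri.019G027800 to Potri.019G028700, MIR15 replicate 1 was the lowest library in 7 of 8 members, at a median of 40.9% of the WT mean, and MIR15 replicate 2 stood at 72.2%. From Potri.019G026200 to Potri.019G026700, MIR15 replicate 2 was the lowest in all 3 members of at least 1 CPM, at 38.4% of the WT mean, while MIR15 replicate 1 stood at 111%. The stretch's median went from -0.29 to -0.51 without WT replicate 1. It was -0.34 in unique reads and -0.19 over the 6 members with under 5% multi-matching reads.

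Potri.019G028600.1 had 16.7 and 17.5 CPM in WT and 5.53 and 11.5 CPM in MIR15, with an edgeR log2 fold change of -1.01 ± 0.32 (SE). Potri.019G027800.1 had 13.6 and 13 CPM in WT and 4.43 and 8.80 CPM in MIR15, or -1.0 ± 0.31 (SE). In both, the WT libraries were close together, MIR15 replicate 2 was intermediate and MIR15 replicate 1 lowest, and next to none of the reads were multi-matching. Potri.019G025600.1, with 157 and 142 CPM in WT and 168 and 158 CPM in MIR15, had both MIR15 libraries above both WT libraries (0.13 ± 0.15, SE). Potri.019G026900.1 had 57.7% of multi-matching reads and overlapping groups, at 32.4 and 36.2 CPM in WT and 27.8 and 36.2 CPM in MIR15.

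In the stretch under Potri.016G, with higher values in MIR15, the members differed along its length. From Potri.016G014600 to Potri.016G015700 the 7 members of at least 1 CPM had log2 fold changes of 0.01 to 0.41, and from Potri.016G016400 to Potri.016G017400 the 10 members had a median of 0.67. In the last 4 members, from Potri.016G017100 to Potri.016G017400, WT replicate 2 was the lowest library each time, at a median of 35.7% of the mean of the other 3 libraries, and WT replicate 1 was 2.63-fold above it. The stretch's median went from 0.52 to 0.18 without WT replicate 2 and to 0.14 without MIR15 replicate 1. It was 0.53 in unique reads, 0.21 over members of at least 5 CPM and 0.12 over those with under 5% multi-matching reads.

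Potri.016G017200.1 had 14.4 and 4.92 CPM in WT and 18.5 and 13.7 CPM in MIR15. Potri.016G017300.1 had 6.34 and 2.37 CPM in WT and 8.18 and 6.66 CPM in MIR15. WT replicate 1 thus lay near the MIR15 libraries in both, and the log2 fold changes of 0.73 ± 0.45 and 0.77 ± 0.43 (SE) had wide errors. Potri.016G016100.1 went against the stretch, with 30.2 and 72.2 CPM in WT and 25.9 and 26.4 CPM in MIR15, and there WT replicate 2 was the highest library; its log2 fold change was -0.97, and -0.21 without that library. Potri.016G015500.1, which held 77.6% of the reads of the stretch, had 879 and 750.2 CPM in WT and 842 and 850.3 CPM in MIR15, so that the MIR15 libraries lay between those of WT. Potri.016G015100.1 also overlapped, at 40.5 and 47.3 CPM in WT and 50.7 and 40.8 CPM in MIR15.

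In the stretch under Potri.006G, 17 of 19 members had positive log2 fold changes, where 50.3% of all genes of at least 1 CPM had. From Potri.006G018000 to Potri.006G019300 the 10 members of at least 1 CPM had a median of 0.21, and from Potri.006G019400 to Potri.006G020500 the 9 members had 0.57, with both MIR15 libraries above both WT libraries in 7. The median was 0.43 in unique reads and 0.42 over the 3 members with under 5% of multi-matching reads, and 0.28 over members of at least 5 CPM. WT replicate 2 was the lowest library in 13 of 19 members and MIR15 replicate 1 the highest in 13.

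Potri.006G019200.1 had 40.4 and 40.1 CPM in WT and 54.9 and 46.7 CPM in MIR15, with an edgeR log2 fold change of 0.34 ± 0.15 (SE) and groups that did not overlap. Potri.006G018500.1 had 5.0 and 4.14 CPM in WT and 10.5 and 6.08 CPM in MIR15, or 0.86 ± 0.30 (SE), also without overlap. Potri.006G018700.1 had 5.10 and 1.86 CPM in WT and 7.58 and 5.48 CPM in MIR15, and its 0.91 ± 0.45 (SE) came with a WT replicate 2 far below the other 3 libraries. Potri.006G019300.1 had 37.6 and 34.0 CPM in WT and 45.3 and 37.4 CPM in MIR15, and MIR15 replicate 2 lay within the WT range. Potri.006G019000.1, with 19% of multi-matching reads, had 5.80 and 6.62 CPM in WT and 6.35 and 5.64 CPM in MIR15 and did not set the genotypes apart.

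**Figure D5:**
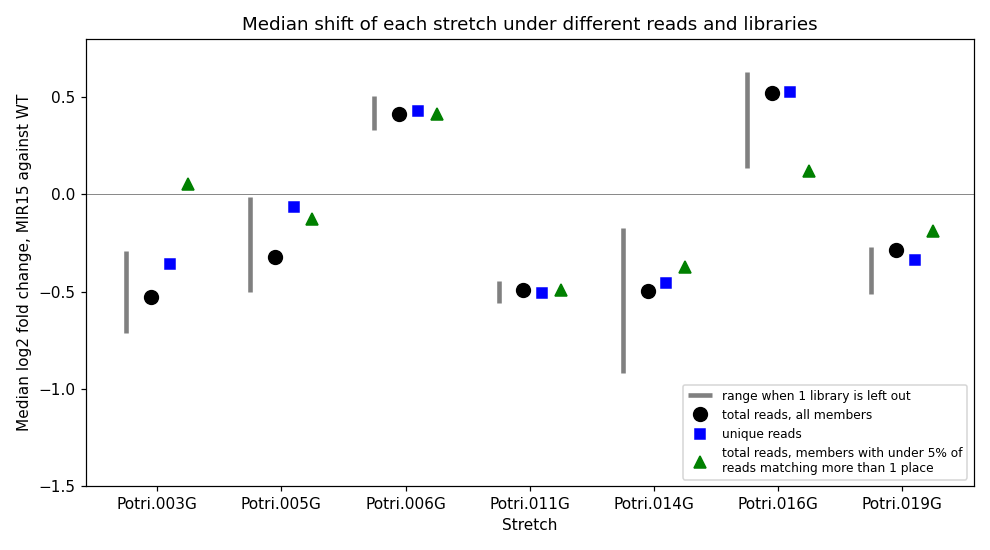
For each stretch on the x axis, the y axis gives the median log2 fold change of MIR15 against WT in total reads of all 19 members (black), in unique reads (blue) and in total reads of the members with under 5% of multi-matching reads (green), and the grey bar spans the medians when 1 library is left out. The 3 points nearly coincide under 011G, at -0.49, -0.51 and -0.49, and under 006G, while under 003G the green point is at 0.05.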

How the data were processed

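Bark RNA of 2 WT and 2 MIR15 samples was compared; groups and replicate numbers follow the sample titles, from which the numbers in the MIR15 file headers differ. Per the file headers, the authors deposited for each gene CLC counts of unique and of total gene reads, and a DESeq normalised signal, which equals the total count times 1 constant per library. DESeq is named in the submitters' processing notes. The sources used here do not give the aligner, build, annotation or how multi-matching reads were placed.

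The total counts of all genes were fitted with edgeR 4.0.16 in R 4.3.3 (filterByExpr, TMM, quasi-likelihood F test on genotype, two-sided), with Benjamini-Hochberg adjustment over 30975 tested genes. The SE comes from the F statistic. All CPM values, unique reads included, use the TMM-scaled total library. Ratios other than edgeR's add 0.1 CPM. The fit was tested on simulated data.

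The members, and all rules and lists used here, were chosen with earlier results of these data known. Of members with a mean of at least 5 CPM, a rule named 32: in each stretch the 2 with most reads, the 2 with the largest log2 fold change in the stretch's direction, the largest against it, and the 1 with the highest share of reads matching more than 1 place. Sections within stretches were chosen after their values were seen. Lists of gene classes and tissue markers could not be filled without names. Alternatives were RLE factors, library size alone, other filters, unique reads, a replicate block, DESeq2 1.42.0, and leaving out each library. No library held the same counts as another.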

Additional observations from a re-analysis of the deposited data

How the results depend on the processing

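With 2 libraries per genotype, the settings tried moved several values, and the cause was not tested. Genes called over the whole table numbered 1 by edgeR, 14 by DESeq2, 120 with a replicate block, 0 in unique reads and 0 at a mean of at least 5 CPM, and 0 to 8 when 1 library was left out. Members called, a count added after seeing the data, numbered 0 by edgeR, 3 by DESeq2 and 7 with the block, and 0 to 2 with 1 library left out, the 2 being without WT replicate 1. The replicate numbers were not taken to pair samples: no label says so, and there are only 2 pairs. The block and the correlation below used the numbers in the sample titles. Numbers in the MIR15 file headers differ from these, and a pairing by them was not tried. Deviations of same-numbered libraries correlated at 0.25 across genes, and whether same-numbered samples belong together was not tested. Under the block the 019G median was -0.36.

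The 005G median was -0.067 in unique reads. At a mean of at least 5 CPM the medians were -0.13 (005G), 0.28 (006G), -0.20 (011G) and 0.21 (016G). With under 5% multi-matching reads they were 0.052 (003G, the opposite sign), -0.13 (005G), 0.12 (016G) and -0.19 (019G). With 1 library left out, they spanned -0.71 to -0.29 (003G), -0.50 to -0.015 (005G, without MIR15 replicate 2 and WT replicate 2), 0.33 to 0.51 (006G), -0.56 to -0.45 (011G), -0.92 to -0.17 (014G, without MIR15 replicate 1 and 2), 0.14 to 0.63 (016G) and -0.51 to -0.27 (019G). In unique reads, an alternative added after seeing the data, the spans were -0.46 to -0.19, -0.26 to -0.028, 0.34 to 0.65, -0.68 to -0.46, -0.79 to -0.21, 0.14 to 0.64 and -0.43 to -0.20 in the same order. Among these were -0.26 (003G, without MIR15 replicate 1), -0.096 (005G, without MIR15 replicate 2), 0.59 (006G, without MIR15 replicate 2), -0.61 (011G, without WT replicate 2) and 0.20 (016G, without WT replicate 2).

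Of the 32 named members, 9 changed sign in some setting. In unique reads these were Potri.005G133100.1 (0.069), Potri.011G075400.1 (-0.026) and Potri.019G026900.1 (0.14). With 1 library left out, the values spanned -0.083 to 0.34 for Potri.003G207200.1, -0.014 to 0.35 for Potri.005G132000.1, -0.14 to 0.049 for Potri.006G019000.1 (0.036 without MIR15 replicate 2) and -0.27 to 0.63 for Potri.011G075400.1 (-0.18 without MIR15 replicate 2). They spanned -0.92 to 0.00013 for Potri.014G184100.1, -0.053 to 0.17 for Potri.016G015500.1, -0.11 to 0.21 for Potri.016G015100.1 (-0.048 without WT replicate 1) and -0.30 to 0.080 for Potri.019G026900.1.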
